A study of Homo sapiens with 8 samples.

Results

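The comparison concerns NALM6 cells, a human line established from a B-cell precursor acute lymphoblastic leukaemia, carrying a doxycycline-inducible construct for the HMGN1 mutant S20,24E, labelled deficient in nucleosome binding (SE). It rests on 4 of the 8 libraries, which are the SE libraries that the treatment and genotype labels call DOX (2) and vehicle (2). SE DOX cells received doxycycline at 100 ng/ml for 6 hours, and SE vehicle cells received vehicle for the same time. The other 4 libraries carry the wild-type construct (WT) and are WT DOX (2) and WT vehicle (2), at the same dose and time. All 8 share the host line, and RNA from an equal number of cells received the same amount of ERCC spike-ins, which are synthetic RNAs meant to set levels per cell. Each group holds a library A and a library B, labelled biological replicates. The sources used here give neither what a letter shares nor whether each line is 1 clone, so the spread between letters may in part be technical. DOX and vehicle libraries of the same letter are called a pair.

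HMGN proteins are small, abundant nuclear proteins that bind nucleosomes through a conserved domain and compete with linker histone, which loosens chromatin. Serines in that domain contact the nucleosome, and exchanging them for glutamate abolishes binding. HMGN1 lies on chromosome 21, in a region often gained in B-cell leukaemia, and the mutant serves as the comparison for effects that need nucleosome binding.

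Levels are FPKM (read fragments divided by transcript length and by the total mapped), in an unnormalized table and in a table the authors normalized, in which the spike-in sum is nearly equal across libraries. The change of a gene is a difference of log2(normalized FPKM + 0.1), DOX minus vehicle. Of 23713 rows, 11042 genes were compared, those with a mean unnormalized FPKM of at least 1 after spike-ins and small-RNA names were left out. In the normalized table, rows at 0 unnormalized FPKM had a median of 0.0948 to 0.105 FPKM across the 8 libraries, here called the floor. The sources used here do not give its origin. The files hold no read counts, so depth is unknown. B-lineage identity was plain in the SE libraries: all 20 B-lineage markers were among the genes compared. Of the 12 markers fixed for each of the other lineages, 1 T-cell, 3 myeloid and 0 erythroid markers were. Summed over all 12, erythroid markers came to 0.429 and 0.264 FPKM in SE DOX A and B and 0.358 and 0.352 FPKM in SE vehicle A and B.

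The RNA of HMGN1 itself was not measurably higher in SE DOX than in SE vehicle. HMGN1 stood at 1421 and 1061 unnormalized FPKM in SE DOX A and B, against 1427 and 1066 FPKM in SE vehicle A and B. The letters differed far more than the treatments, and each DOX library lay close to its vehicle partner. After spike-in normalization the values were 1003 and 967.6 FPKM in SE DOX and 1306 and 1049 FPKM in SE vehicle. Once the shift shared by all genes was taken out, the change was -0.01 (SE 0.05, 95% interval -0.11 to 0.10, limma adjusted p = 1.00). A row for HMGN1 adds up whatever reads map to the gene, and the sources used here do not say whether it covers the construct's transcript, so it does not check the DOX label. Among its relatives, which share the nucleosome-binding domain, the changes beyond the shift were -0.01 for HMGN2, 0.02 for HMGN3, -0.04 for HMGN4 and -0.01 for HMGN5, none past the test.

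On the spike-in scale, nearly all genes were lower in SE DOX than in SE vehicle, by an amount that differed between the letters. The median level over the 11042 genes was 10.7 and 13.9 normalized FPKM in SE DOX A and B, against 13.7 and 15.2 FPKM in SE vehicle A and B. The groups overlapped, because SE DOX B lay above SE vehicle A. In pair A the shared change was -0.35 (a ratio of 0.784, or -21.6%), and in pair B it was -0.13 (a ratio of 0.916, or -8.41%). The mean of the pairs was -0.24 ± 0.16 (SD, n = 2 pairs). An exact two-sided permutation test on the 4 library medians gave p = 0.667, where the smallest p that 6 splits allow is 0.333. This test does not use the pairs, so the difference between the letters enters it. In pair A 99.4% of genes were below 0 and the central span, from the 5th to the 95th percentile, ran from -0.47 to -0.21. In pair B 94.7% were below 0. Both pairs were below 0 for 10408 genes (94.3%) and above 0 for 16 (0.145%). SE DOX and SE vehicle did not overlap for 4167 genes lower (37.7%) and 7 higher (0.0634%).

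**Figure D1:**
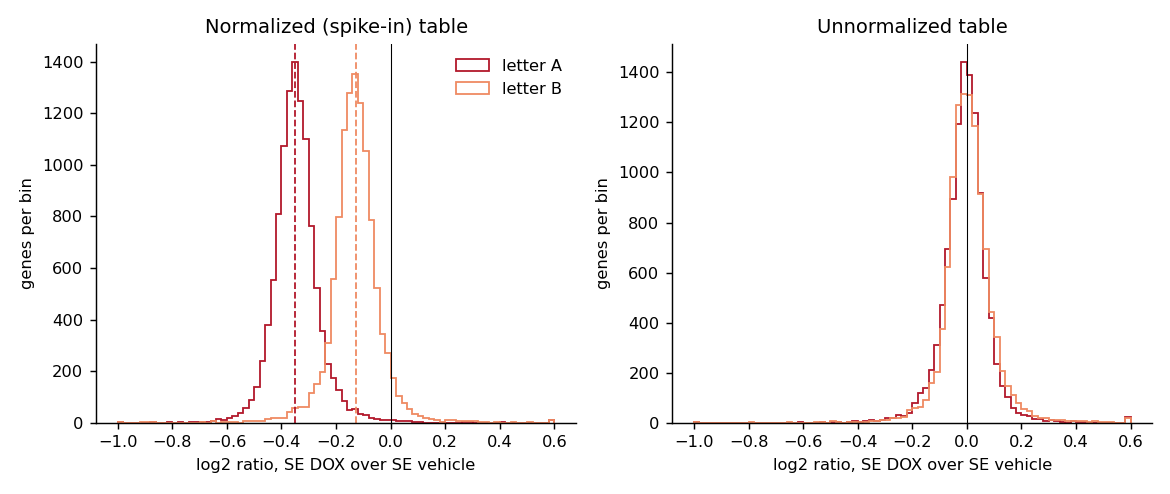
Log2 ratio of each of 11042 genes in SE DOX over SE vehicle, by letter, in the normalized (left) and unnormalized (right) table; the vertical axis counts genes per bin, dashed lines mark the medians and values past the axis limits are gathered in the end bins. The medians lie at -0.35 (A) and -0.13 (B) in the normalized table and at 0 within 0.01 in the unnormalized one.

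In the unnormalized table the gene medians were level and the spike-ins were not. Scaling to mapped fragments removes a shift shared by all genes, so level gene medians there do not tell where the shift arose. The median unnormalized level was 15.2 FPKM in each of the 4 SE libraries, and the unnormalized shift was -0.0006 in pair A and 0.002 in pair B. In that table the groups did not overlap for 587 genes lower in SE DOX (5.32%) and 574 higher (5.2%). The summed spike-ins came to 10042 and 7819 unnormalized FPKM in SE DOX A and B, against 7761 and 7228 FPKM in SE vehicle A and B. SE DOX A thus stood apart from the other 3, with spike-ins at 1.06% of all FPKM against 0.719% to 0.826% in the others. Among the 40 spike-ins that averaged 1 FPKM or more, the median log2 ratio was 0.34 in pair A and 0.12 in pair B, higher in SE DOX in both. The most abundant, ERCC-00074, had 4370 and 3358 FPKM in SE DOX and 3357 and 3157 FPKM in SE vehicle. Less RNA per cell, fewer cells taken and a larger share of spike-in cannot be told apart in these bulk samples.

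**Figure D2:**
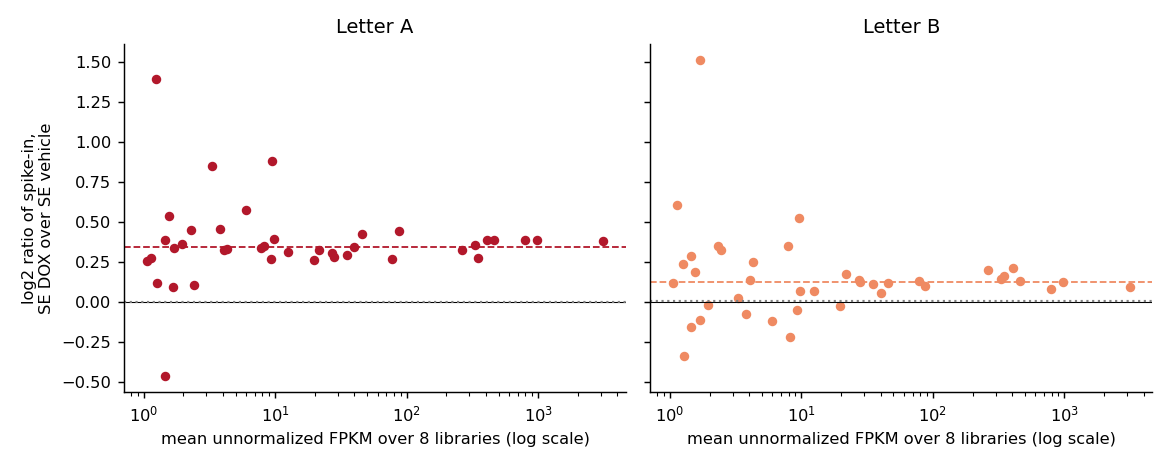
Log2 ratio of each of 40 spike-ins in the unnormalized table, SE DOX over SE vehicle, against its mean FPKM (log scale), for letter A (left) and letter B (right); dashed lines mark the spike-in medians of 0.34 and 0.12, and dotted lines the gene medians. The spike-ins scatter more at low FPKM and gather near the median at high FPKM.

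With the WT construct the shift was smaller, at -0.03 in pair A and -0.04 in pair B. The difference, SE minus WT, was -0.21, and an exact two-sided permutation test over the 4 pair values gave p = 0.333, the smallest p it can give. Without SE DOX A or SE vehicle A, which leaves pair B alone, the SE shift was -0.13 and the difference -0.09. Without SE DOX B or SE vehicle B, which leaves pair A alone, they were -0.35 and -0.32.

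Gene by gene on the spike-in scale, limma called 1 gene of 11042 (0.00906%) lower in SE DOX and 0 higher. It was INO80B-WBP1, a read-through row that joins INO80B and WBP1, listed at 0.01 unnormalized FPKM in both SE DOX libraries and at 4.54 and 0.642 FPKM in SE vehicle A and B. Its change was -3.23 (SE 0.54, adjusted p = 0.00697), a size that depends on the pseudocount and on the floor. The normalized values in SE DOX A and B were 0.0927 and 0.1005 FPKM. The row was also at 0.01 FPKM in WT vehicle B, with 0.580 and 2.11 FPKM in WT DOX A and B and 0.987 FPKM in WT vehicle A, so values of 0.01 occurred in DOX and in vehicle libraries. On the same scale the single-gene rows of INO80B, a subunit of the INO80 chromatin remodeller, and WBP1 had changes of -0.03 and -0.06. When letters were taken as pairs (the replicate block), 320 genes were called, 312 of them lower. Without SE DOX B the count was 0, and it was 5 without SE vehicle A, 8 without SE vehicle B, 6 without any 1 WT library and 1 without SE DOX A.

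Beyond the shift, most genes differed little between SE DOX and SE vehicle. In pair A 83.1% of genes and in pair B 82.1% lay within 0.1 of the shared shift, and 378 and 462 genes lay more than 0.2 away. No gene was called by limma at an adjusted p of 0.05 (0%), and the lowest adjusted p was 0.390. At an unadjusted p under 0.05 there were 182 genes higher (1.65%) and 121 lower (1.1%). The 95% interval lay within ±0.5 for 10879 genes (98.5%) and within ±1 for 11025. The count of calls changed with the libraries fitted: it was 30 with the SE libraries alone, and it was also higher with any 1 library left out. Without 1 SE library the SE effect is that of the other pair alone. All of these fits have 1 residual degree of freedom, against 2 with all libraries. The prior degrees of freedom were 8.05 with all libraries and 66.2 with the SE libraries alone.

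The letters mostly did not point the same way. Both pairs were above the shift for 2219 genes (20.1%), both below for 2333 (21.1%), and 6490 (58.8%) had opposite signs. Across genes, which are not independent replicates, the changes in A and B had a Spearman correlation of -0.20 and a Pearson correlation of 0.02. Past 0.2 in both pairs lay 36 genes above (0.326%) and 14 below (0.127%), and 57 (0.516%) lay past 0.2 in opposite directions.

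**Figure D3:**
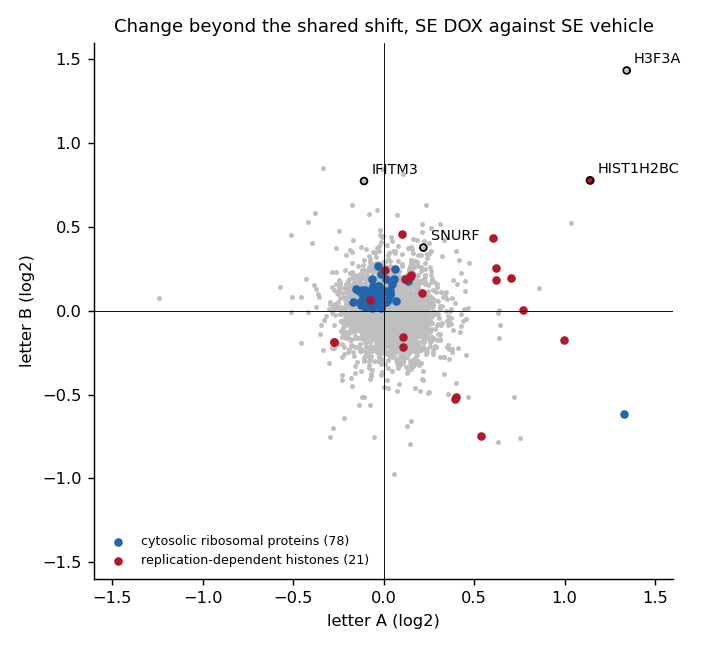
Change beyond the shared shift of the genes compared, SE DOX against SE vehicle, in pair A (horizontal, log2) and pair B (vertical, log2), with 78 cytosolic ribosomal protein genes in blue and 21 replication-dependent histone genes in red. Genes past the axis limits in either pair, among them DEFB109P1 and INO80B-WBP1, are not drawn. Ribosomal protein genes gather left of 0 in A and above 0 in B, and 12 of the 21 histone genes are above 0 in both.

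The genes nearest to a shared rise were a small and mixed group, and none passed the test. SNURF, which shares a transcript with the splicing factor gene SNRPN in the imprinted Prader-Willi region, had 25.6 and 29.7 unnormalized FPKM in SE DOX A and B, against 21.9 and 22.7 FPKM in SE vehicle A and B. The groups did not overlap. Its change beyond the shift was 0.30 (SE 0.04, adjusted p = 0.390), while SNRPN was at -0.01, and reads can be divided between these overlapping rows. With the WT construct SNURF was at -0.19 and -0.17, and the difference of the effects was 0.48 (adjusted p = 0.0754).

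SNHG9, a small nucleolar RNA host gene, had 112 and 139 unnormalized FPKM in SE DOX and 95.1 and 121 FPKM in SE vehicle. The groups overlapped, but each DOX library was above its partner, with a change of 0.22 (SE 0.04, adjusted p = 0.414). With the WT construct it was at -0.12 and -0.24, and the difference was 0.40 (adjusted p = 0.0754). EXOSC4, a subunit of the RNA exosome, had 14.1 and 14.9 FPKM in SE DOX, against 12.6 and 11.7 FPKM in SE vehicle, a change of 0.25 (adjusted p = 0.772). SMN2, a near-identical copy of the snRNP assembly gene SMN1, was at 0.05 in A and 0.36 in B, and SMN1 was at -0.05 overall. The other rows picked by the naming rule were HERC2P10 at 0.31, PPIAL4A at 0.23, INO80B at 0.21 and the histone genes HIST1H4J and HIST1H4K. INO80B overlaps the read-through row INO80B-WBP1, which was lower in both SE pairs, and beyond the shift WBP1 was at 0.18. Whether reads were divided between these rows was not tested.

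Of the falls, TMEM160, a transmembrane protein gene, had the smallest standard error. It had 14.3 and 23.6 unnormalized FPKM in SE DOX A and B, against 17.1 and 27.0 FPKM in SE vehicle A and B. The letters differed more than the treatments, and the change beyond the shift was -0.22 (SE 0.04, adjusted p = 0.414). The naming rule fixes the sign of the SE pairs. WT pairs A and B, which it does not use, were at -0.28 and -0.22. TOP1P2 and MSTO2P, both pseudogene rows, were at -0.20 and -0.33. SNAR-B1, 1 of several near-identical non-coding copies, was listed at 5.99 and 0 FPKM in SE DOX and 7.44 and 7.32 FPKM in SE vehicle, while its copy SNAR-C3 was listed at 0 and 8.32 FPKM in SE DOX and at 0 in both SE vehicle libraries.

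**Figure D4:**
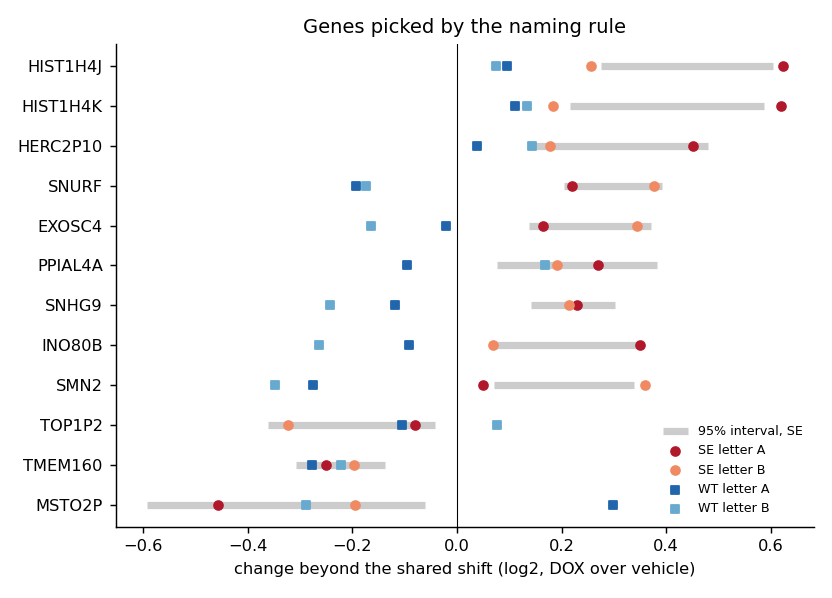
Change beyond the shared shift (log2, DOX over vehicle) of 12 of the 13 genes picked by the naming rule, with SE pairs as circles, WT pairs as squares and the 95% interval of the SE change as a grey bar; SNAR-B1 is left out for scale. The naming rule places every rise above 0 in both SE pairs. Of the rises, SNURF, SNHG9, EXOSC4, SMN2 and INO80B lie below 0 in both WT pairs. HIST1H4J, HIST1H4K and HERC2P10 lie above 0 in both WT pairs, and PPIAL4A has WT pairs of opposite sign.

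Past 0.5 in both pairs lay 4 genes above (0.0362%) and 1 below (0.00906%), named here after their values were seen. H3F3A, which encodes the replacement histone H3.3, had 5.04 and 5.23 unnormalized FPKM in SE DOX against 1.90 and 1.77 FPKM in SE vehicle. The groups did not overlap, and the change was 1.39 (SE 0.26, adjusted p = 0.533). With the WT construct it had 6.78 and 1.92 FPKM in WT DOX A and B, against 1.86 and 0.01 FPKM in WT vehicle A and B. limma called it there (adjusted p = 0.0144), 1 of 2 genes called (0.0181%). The size of the change in WT pair B depends on the pseudocount and on the floor, since WT vehicle B was at 0.01 unnormalized and 0.119 normalized FPKM. H3F3B, which encodes the same protein, had 198 and 205 FPKM in SE DOX and 200 and 205 FPKM in SE vehicle. The H3F3A row thus held a small share of the FPKM summed over both rows. How fully that row counts H3F3A RNA was not tested. HIST1H2BC, an H2B gene, was at 0.96 from 2.42 and 1.10 FPKM in SE DOX and 1.03 and 0.546 FPKM in SE vehicle. POC1B-GALNT4, a read-through row, was at 0.78, while GALNT4 was at -0.43 and POC1B at -0.03. With the WT construct these rows were at 0.99, -0.36 and -0.05. Whether reads were divided between these overlapping rows was not tested. DEFB109P1 was listed at 0.733 and 2.91 FPKM in SE DOX and at 0 in both SE vehicle libraries. It was also listed at 2.40 and 0 FPKM in WT DOX A and B, and at 0 and 3.31 FPKM in WT vehicle A and B. The fall was INO80B-WBP1.

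Replication-dependent histone genes, which supply histones in S phase and whose RNAs mostly lack a poly(A) tail, had medians above the shift in both pairs. Of 69 listed genes 21 were compared, with a median change of 0.21 in A and 0.11 in B, against 0.002 and -0.004 over all genes. Their levels were low, with no unnormalized value above 15.7 FPKM in any library. Genes of 1 to 2 FPKM had medians of 0.07 in A and -0.03 in B. Above the shift lay 18 of 21 in A and 13 of 21 in B (5691 and 5237 of 11042 over all genes). Both pairs were above the shift for 12 of 21 and below for 2 of 21. Over all genes these shares were 20.1% and 21.1%. None was called, and 7 of 21 were higher and 0 of 21 lower at an unadjusted p under 0.05, against 1.65% and 1.1% of all genes. HIST1H4J had 9.47 and 7.59 unnormalized FPKM in SE DOX against 6.13 and 6.27 FPKM in SE vehicle, a change of 0.44 (adjusted p = 0.414). HIST1H4K, whose values nearly repeat those of HIST1H4J, was at 0.40, and HIST2H4A and HIST2H4B, with identical values, were lowest at -0.23. Members are therefore not independent. With the WT construct the medians were 0.05 and 0.16, and the difference between constructs was not tested for the list.

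Cytosolic ribosomal protein genes, whose products build the translating ribosome, had medians of opposite sign in the pairs. The median was -0.07 in A and 0.07 in B, with 14 of 78 above the shift in A and 77 of 78 in B. RPS27, the lowest of the list, had 4032 and 3931 unnormalized FPKM in SE DOX A and B, against 4460 and 3850 FPKM in SE vehicle A and B, or -0.17 in A and 0.05 in B. RPL21, the highest on average, was at 1.33 in A and -0.61 in B. Nuclear-encoded respiratory chain genes had the same signs, with medians of -0.03 in A and 0.06 in B and 26 and 70 of 77 above the shift. Glycolysis genes did too, at -0.05 and 0.05, with 2 and 17 of 23 above. With the WT construct the medians were -0.02 and -0.04 for ribosomal protein genes, -0.02 and -0.04 for the respiratory chain and 0.02 and -0.02 for glycolysis.

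By level, the highest and the lowest class had medians of opposite sign in the pairs. Genes with a mean of at least 100 FPKM (765 genes) had a median of -0.03 in A and 0.03 in B, and genes of 1 to 2 FPKM (858 genes) 0.07 in A and -0.03 in B. In the unnormalized table the highest class was at -0.02 and 0.02, and the lowest at -0.01 and 0.005. Genes of 20 to 50 FPKM, the class with the most genes (2711), were at -0.003 in both pairs. The part of level in the list medians was not tested.

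**Figure D5:**
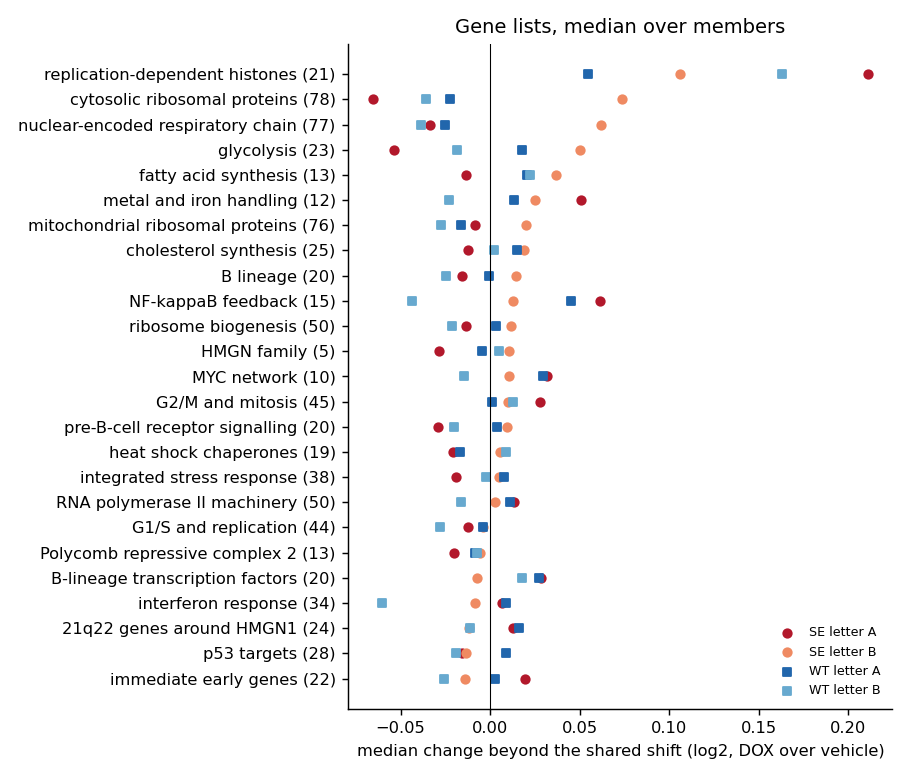
Median change beyond the shared shift (log2, DOX over vehicle) over the compared members of each gene list, by pair, with the number of members in brackets; circles are SE pairs and squares WT pairs. Histones lie right of 0 in every pair, and cytosolic ribosomal proteins, respiratory chain and glycolysis lie left of 0 in SE pair A and right of it in SE pair B.

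The remaining programmes were close to flat. Genes of G2/M and mitosis were above the shift in both pairs for 16 of 45 and below for 2 of 45 (20.1% and 21.1% over all genes), at medians of 0.03 and 0.01. CDK1, the mitotic kinase, was their highest at 0.06. Integrated stress response genes (38 compared) had medians of -0.02 and 0.005, from CEBPB, a stress-responsive transcription factor, at 0.28 to PPP1R15A, which restarts translation, at -0.07. In the interferon response list (34 compared) medians were 0.006 and -0.008, and IFITM3, an antiviral membrane protein, was at -0.11 in A and 0.77 in B. Mitochondrial ribosomal protein genes (76 compared) ran from MRPL39 at -0.08 to MRPL54 at 0.11.

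Changes in genes of B-lineage identity were small. Among 20 B-lineage markers the highest was PAX5, the B-cell commitment factor, with 95.8 and 98.7 unnormalized FPKM in SE DOX and 90.4 and 97.1 FPKM in SE vehicle, a change of 0.05. The lowest was RAG2, which cuts DNA in V(D)J recombination, at -0.04. The 20 pre-B-cell receptor signalling genes ran from BTK, a signalling kinase, at -0.04 to VPREB1, a surrogate light chain, at 0.04. Polycomb repressive complex 2 genes, which set H3K27 methylation, with the demethylase gene KDM6A among them, were below the shift in both pairs for 8 of 13 and above for 3 of 13 (21.1% and 20.1% over all genes), at medians of -0.02 and -0.006. The 24 genes of 21q22 around HMGN1 had medians of 0.01 and -0.01, and ran from DSCR3 at -0.05 to SH3BGR at 0.43. SH3BGR averaged 1.46 unnormalized FPKM in the SE libraries and was at -0.40 with the WT construct. None of these genes was called.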

How the data were processed

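The authors deposited unnormalized and normalized FPKM. The tools named are HISAT and Cufflinks 2.0.0, with genome hg19, per the submitters' processing notes. How the normalized table was scaled is not stated in these sources. The values are not counts, so no count test was run. Per the labels' protocols, RNA came from equal cell numbers, with ERCC spike-ins and a TruSeq v2 kit.

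Differences were taken on log2(normalized FPKM + 0.1). The shared shift is the difference of library medians. limma 3.58.1 in R 4.3.3 (empirical Bayes, trend) was fitted to all 8 libraries, without a block on the spike-in scale, and with letter within construct as a block after each library's median was subtracted; p-values were Benjamini-Hochberg adjusted over 11042 genes at 0.05. Log2 ratios understate the change of low genes. The fit beyond the shift was tested on simulated data for its SE effect. The fit on the spike-in scale and the SE minus WT difference were not tested in this way. Letters were taken as pairs because deviations between A and B correlated between DOX and vehicle (0.739 in SE, 0.773 in WT); this pairing comes from the data, not the labels. 0 columns of other samples were present.

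Named genes are HMGN1, up to 12 rises and 12 falls by test among genes of at least 5 FPKM with a change of at least 0.2 and both pairs alike (9 rises and 4 falls met this), and the extremes of each list. The members and lists were chosen with earlier results of these data known. Alternatives were another pseudocount, filters, tables, blocks, centring and libraries left out.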

Additional observations from a re-analysis of the deposited data

How the results depend on the processing

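The SE shift of -0.24 was 0.000686 in the unnormalized table, and the SE minus WT shift of -0.21 was -0.00208 there. With 1 library left out they ran from -0.35 to -0.13 and from -0.32 to -0.09. Leaving out 1 SE library returns the SE shift of the other pair, so these ends repeat the pair values. By construction, scaling to mapped fragments removes a shared shift. The spike-in-scale count of 1 became 0 with a pseudocount of 1, no filter, a mean of at least 10 FPKM, the unnormalized table, no trend, or equal library medians without the replicate block, 3 with 1 spike-in factor, 6 with small-RNA names kept, 9 with the SE libraries alone and 320 with the replicate block (0 to 8 with 1 library left out). The count beyond the shift, 0, became 1 with a pseudocount of 1 (H3F3A), 16 with no filter, 1 with at least 10 FPKM (SNURF), 4 with small-RNA names kept and 30 with the SE libraries alone (11 to 32 with 1 library left out), and was 0 without the replicate block. The SE minus WT count, 0, became 3 with a pseudocount of 1, 2 with no filter, 3 with at least 10 FPKM, 7 with small-RNA names kept and 2 with centring on genes of at least 10 FPKM (18 to 69 with 1 library left out). Except where stated, the cause was not tested. All 13 genes named as rises or falls kept their sign beyond the shift in the alternatives run. The naming rule asks for both SE pairs on the same side, so leaving out 1 SE library could not change a sign. On the spike-in scale the means over the SE pairs were below 0 for the rises SNHG9 (-0.02), SMN2 (-0.03), PPIAL4A (-0.01) and INO80B (-0.03). They were above 0 for SNURF (0.06), HIST1H4J (0.20), EXOSC4 (0.015), HIST1H4K (0.16) and HERC2P10 (0.08). There SNURF was at -0.13 in A and 0.25 in B, and EXOSC4 at -0.19 and 0.22. SNHG9, SMN2 and PPIAL4A also had pairs of opposite sign on that scale. With 2 libraries a group and no read counts, precision at low levels is unknown.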
